A study of Mus musculus with 2 samples.

Results

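The 5 genes described here are the organic osmolyte transporter genes Slc5a3, Slc6a12 and Slc6a6, the regulator gene Nfat5 and the chaperone gene Hspa4l. These were named for their function out of 32227 genes counted, with earlier results of these data known. They were followed across the cell classes of the thick ascending limb (TAL) in mouse kidney, the segment that reabsorbs salt through NKCC2 (Slc12a1). The classes are named α, β, γ and MD (macula densa).

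Cells of the renal medulla live in salty interstitium and balance it with small organic solutes such as myo-inositol, betaine, taurine, sorbitol and glycerophosphocholine, which raise osmolality without disturbing proteins. The transcription factor Nfat5, also called TonEBP, is known to bind the tonicity-responsive enhancer (TonE) and to raise the transcription of osmolyte transporters and of chaperones when tonicity rises. Nfat5 is also known to be regulated through its translation, its modification and its entry into the nucleus, so its own transcript need not follow its activity.

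Nuclei came from male B6 mice labelled WT, with an age of 12 given without a unit, that carried NKCC2-CreERT2 and CAG-Sun1/sfGFP (NKCC2-INTACT). Both groups shared these alleles and tamoxifen, which marks the nuclear envelope of Slc12a1-expressing cells with green fluorescence for sorting. The groups were cortex, a superficial strip of kidney, and medulla, the remaining tissue, which therefore holds deep cortex as well. There was 1 library per region, the number of animals was not given in the sources used here, and region and library cannot be told apart.

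The cortex library held 16457300 counts in 5442 barcodes and the medulla library 20947211 counts in 8121, with 0 barcodes in common and median depths of 2427 and 2430 counts. Barcodes with at least 10 Slc12a1 counts were kept, 5218 (95.88%) in cortex and 7967 (98.1%) in medulla. A nucleus was MD if Nos1 and Pappa2 together reached 3 counts, otherwise β if Tmem52b reached 2, otherwise γ if Tmem207 and Gpc5 together reached 2, and otherwise α. Cortex then held 2824 α, 1493 β, 248 γ and 653 MD nuclei. The study described γ cells as confined to medulla, so the name γ in cortex means only that the rule was met. Medulla held 571 β, 3542 γ and 78 MD nuclei, and its α nuclei were divided by Enox1 and Thsd4, genes higher toward the cortex, into 1137 cortex-side (at least 5 counts), 309 between (3 or 4) and 2330 medulla-side nuclei (at most 2). These are ranges of counts rather than types. In medulla 205 β nuclei sat exactly at the cut and 370 nuclei 1 count under it, and in cortex the numbers were 331 and 425. For the γ cut they were 501 and 748 in medulla and 73 and 248 in cortex. For the MD cut they were 11 and 11 in medulla and 94 and 133 in cortex.

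Genes that the rule did not use followed the class names in part. Kcnj10, the Kir4.1 channel, lay at 139 and 169.6 counts per 1000000 counts (CPM) in β nuclei of cortex and medulla, at 144.2 and 109 CPM in γ nuclei, and between 8.102 and 21.65 CPM in the 4 α groups. Cldn16, the divalent cation claudin, lay at 188.4 and 249.9 CPM in β nuclei against 27.3 to 106.9 CPM in α nuclei. In γ nuclei it was 152.7 CPM in cortex, close to β, and 54.99 CPM in medulla. Cldn10, the monovalent cation claudin, lay between 215.9 and 257.4 CPM in the 4 α groups. In medulla it was 211.1 CPM in γ, 55.78 CPM in β and 96.37 CPM in MD nuclei. It separated the cortex classes less, with 156.4 CPM in γ, 116.1 CPM in β and 113.9 CPM in MD nuclei. CPM were computed for a class in a library as a whole, from the summed counts of its nuclei, and not per nucleus.

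Values in parentheses after a level, a ratio or a share are 95% limits. Levels carry exact Poisson limits, ratios conditional binomial limits and shares Clopper-Pearson limits. They cover counting error only, and with 1 library per region no test across animals was possible. Classes of barcodes also held RNA of other cells. A list of 8 proximal tubule markers summed to 1773 to 3371 CPM over the 4 cortex classes and to 238.1 to 586.3 CPM over the 6 medulla groups, with none of the 8 markers at 0 in any group. Markers of the distal convoluted tubule, Slc8a1 among them, summed to 29.29 to 866.7 CPM, highest in cortex β nuclei and next in medulla β nuclei at 582.3 CPM. The part of Slc8a1 in these sums was not tested. Markers of endothelium summed to 27.67 to 161 CPM, and those of intercalated cells, thin limb, principal cells, immune cells, podocytes and stroma to at most 68.47, 52.37, 38.63, 29.09, 26.01 and 16.97 CPM. Barcodes with at least 3 counts of these markers of other cell types, Slc8a1 left out, were then counted. They made up 18.13% of cortex α, 29.34% of cortex β, 27.82% of cortex γ, 10.26% of cortex MD and 1.282% to 5.604% of the medulla groups. Values without these barcodes are given beside the results they moved most.

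Slc5a3 encodes the sodium/myo-inositol cotransporter, which draws inositol into the cell. Its gene lies at chr16:91854965-91884361 on the plus strand (GRCm39, ENSMUSG00000089774) and starts at the same base as Mrps6, which encodes a protein of the mitochondrial ribosome and spans chr16:91854965-91909592. Their first exons are the same 404 bases in the annotation, and the second exon of Slc5a3, 10754 bases at chr16:91873608-91884361, lies wholly inside intron 1 of Mrps6. Whether introns were counted was not given in the sources used here, and reads of the shared stretches could have been given to either gene, so the counts of the pair are uncertain and not independent.

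Slc6a12 encodes the betaine/GABA transporter and lies at chr6:121320035-121342734 (plus strand, ENSMUSG00000030109). Its most upstream RefSeq start is one of 5 listed starts, and the 250 bases before it hold a match to TonE. That stretch is printed because it is the only window of the member genes with such a match. It lies at chr6:121319283-121319532 (GRCm39, plus strand), 502 bases before the annotated start of the gene and outside its exons, with the match in capitals:
Slc6a12, 250 bases before the upstream start: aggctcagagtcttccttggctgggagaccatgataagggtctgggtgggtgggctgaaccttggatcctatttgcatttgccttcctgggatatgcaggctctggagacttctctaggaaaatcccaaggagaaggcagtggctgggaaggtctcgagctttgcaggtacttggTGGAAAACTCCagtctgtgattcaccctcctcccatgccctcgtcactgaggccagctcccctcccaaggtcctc

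The match begins 75 bases before that start. Windows of 300 bases (250 before and 50 after each RefSeq start, GRCm38.p6) were searched on both strands for TonE and for its core TGGAAA, which every TonE match contains. Of all 32851 windows 4.96% held TonE and 21.4% the core. Neither was found in the single windows of Nfat5 and Hspa4l or in the other 4 windows of Slc6a12, and no window of Slc6a6 was analysed. Neither was found in those of Slc5a3 and Mrps6, but these are 1 stretch shifted by 14 bases whose 250 bases before the RefSeq start lie almost wholly inside the annotated first exon, so the sequence upstream of that exon was not searched. Of 33 genes of related pathways with a window, 4 held TonE, Hspb1, Hsph1, Nfatc2 and Pnpla6, where 5.74% of all 27025 genes did. A match describes these letters and no binding was measured.

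Slc6a6, the taurine transporter gene, lies at chr6:91660573-91736047, Nfat5 at chr8:108020102-108106149 and Hspa4l, a chaperone gene related to Hspa4 and known to respond to osmotic stress, at chr3:40698643-40750538, all on the plus strand of GRCm39.

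Slc5a3 was high on the medullary side of the TAL, low in cortex and lowest in the macula densa class. In medulla it reached 3613.5 CPM (3562.9 to 3664.6) in medulla-side α nuclei, 3435.1 CPM (3397 to 3473.5) in γ, 2243.7 CPM (2140.1 to 2351) in between α, 2031 CPM (1964.9 to 2098.8) in β and 1608.6 CPM (1565 to 1653.1) in cortex-side α nuclei. In cortex it lay at 1338.1 CPM (1260.3 to 1419.4) in γ, 939.3 CPM (918.2 to 960.9) in α and 895.8 CPM (870.3 to 921.8) in β nuclei. The MD class was lowest, with 349.4 CPM (265.3 to 451.6) in medulla and 315.4 CPM (289.1 to 343.6) in cortex. In this order of 10 groups only the neighbours cortex α and β, and the MD classes of medulla and cortex, had overlapping intervals. Slc5a3 and Mrps6 both belong to a set of medullary genes that the study chose on these same libraries, so their regional direction is not independent evidence.

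**Figure D1:**
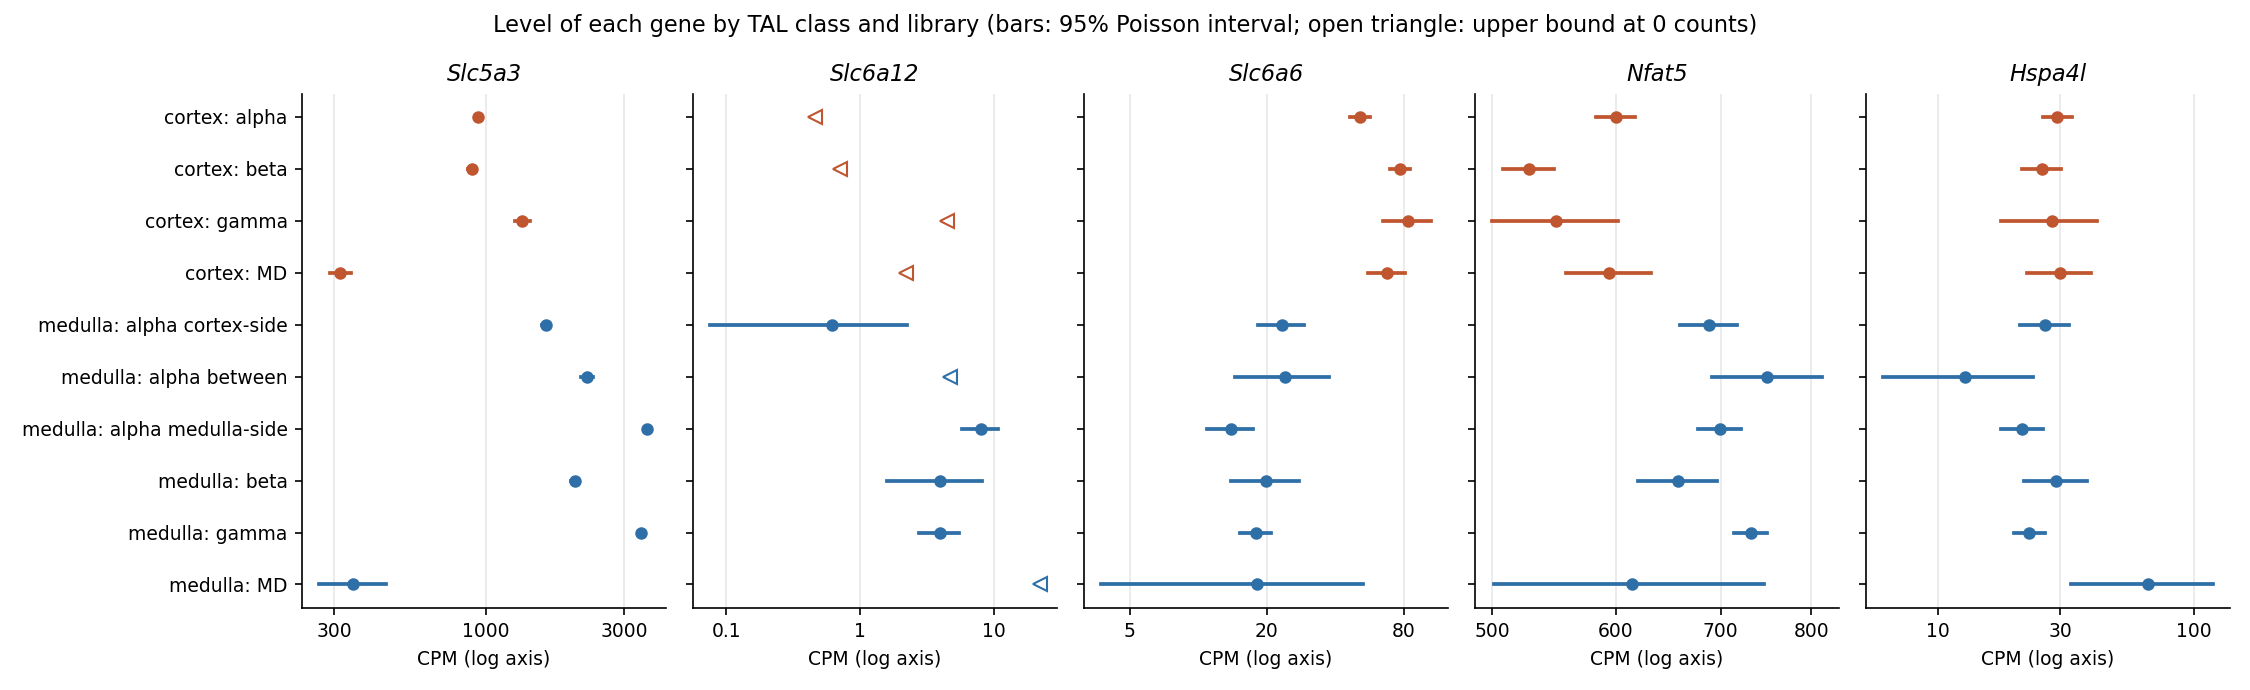
CPM of the 5 genes (log axes that differ by panel) in the 10 class and library groups, with 95% Poisson intervals and cortex in orange, medulla in blue. Slc5a3 runs from 315.4 CPM in cortex MD to 3613.5 CPM in medulla-side α nuclei, Slc6a12 has 0 counts in all 4 cortex classes (open triangles mark the upper bound), and Nfat5 stays between 527.4 and 750 CPM.

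Within the medulla library, position separated α nuclei. Slc5a3 was 2.25-fold higher in medulla-side than in cortex-side α nuclei (2.18 to 2.32). Together with Slc6a12 this made 2 of the 5 genes at least 2-fold higher there, beside 2.91% of the 12819 genes with at least 20 counts, and 0 of the 5 at least 2-fold lower, beside 6.19% (9.1% in either direction). The relation was graded. With 0, 1, 2, 3 or 4, 5 to 7, and 8 or more counts of Enox1 and Thsd4, medulla α nuclei held 3835.9, 2999.4, 2824.4, 2243.7, 2049.5 and 1436.8 CPM of Slc5a3. These counts divided the nuclei into the sides, and Slc5a3 itself took no part in the division. Enox1 and Thsd4 belong to a set of cortical genes, and Slc5a3 to a set of medullary genes, that the study chose on these same libraries. The direction of the decline, here and in the classes below, is therefore not independent evidence, nor is the place of Slc5a3 among the 2 higher genes. The 5 members were chosen with earlier results of these data known, so their share beside that of all genes is not independent evidence either.

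Classes that were not divided by position showed a decline from the first to the last step as well. In medulla γ nuclei Slc5a3 fell from 3633.6 CPM (3588.6 to 3679) at 0 counts to 2154.1 CPM (1994.6 to 2322.9) at 8 or more, lower at each step. In medulla β nuclei it went from 3071.7 CPM (2856.6 to 3298.7) to 1511.1 CPM (1428.5 to 1597.2), with 1 step, from 1 to 2 counts, in the other direction. In cortex α nuclei the first 2 steps, 1739.9 and 1752.3 CPM, had overlapping intervals and the last was 856 CPM (833.5 to 878.9). In cortex β nuclei the steps were 1651.3, 1516.3, 824, 1309.6, 970.1 and 843.7 CPM, and in cortex γ nuclei 2841.4, 1915.4, 1687.2, 1689.5, 930.8 and 1003.8 CPM, uneven series in which some steps held only 18 nuclei. The deeper nuclei, which have more chance to reach 8 counts, lay at the low end, with a median depth of 2755 counts in medulla α nuclei against 2237 at 0 counts.

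**Figure D2:**
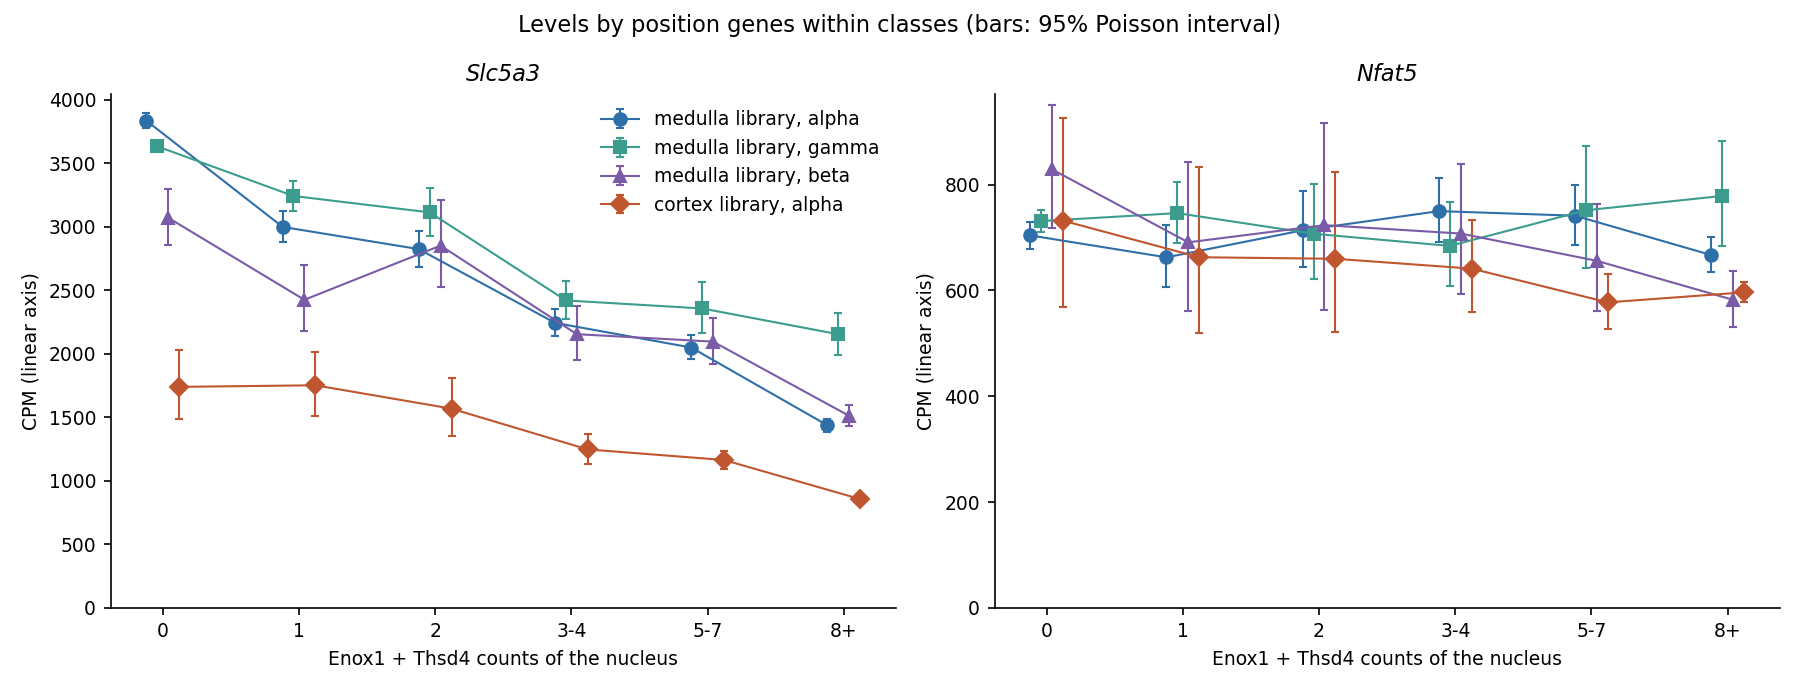
CPM of Slc5a3 (left) and Nfat5 (right) on linear axes by the summed Enox1 and Thsd4 counts of the nucleus, for 4 classes, with 95% Poisson intervals. Slc5a3 declines from 3835.9 to 1436.8 CPM in medulla α nuclei and from 1739.9 to 856 CPM in cortex α nuclei, while Nfat5 in medulla α nuclei stays between 662.6 and 750 CPM.

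At the same number of position counts the libraries still differed. Nuclei with 0 counts held 3835.9 CPM (3776 to 3896.6) in medulla α against 1739.9 CPM (1483.8 to 2027.5) in cortex α, the latter from 43 nuclei. With 2 counts the values were 2824.4 CPM (2686.5 to 2967.6) and 1568.3 CPM (1349.3 to 1812.7). With 8 or more they were 1436.8 CPM (1388.3 to 1486.6) and 856 CPM, but that range is open and need not be matched. The median was 13 position counts over all cortex α nuclei and 11 in cortex-side α nuclei of medulla. Over the whole groups, cortex-side α nuclei of medulla held 1.71 times the Slc5a3 of cortex α nuclei (1.65 to 1.78), and 1.5 times (1.44 to 1.56) without barcodes bearing other cell types' markers. Barcodes below the nucleus call, with at most 100 counts, held 2680.2 CPM of Slc5a3 in medulla and 721.2 CPM in cortex, so RNA outside nuclei differed between the libraries in the same direction. Its part in the difference was not tested. In cortex α nuclei Slc5a3 was lower where markers of other cell types were many. It was 1134.7 CPM (1100.7 to 1169.4) with 0 such counts and 471.5 CPM (442.7 to 501.7) with 10 or more. Cortex MD nuclei did not share this, with 274.9 CPM (240.3 to 313) at 0 such counts. They held 816.2 CPM (614.9 to 1062.4) at 3 to 9, from 15 nuclei, and 363.8 CPM (306.7 to 428.6) at 10 or more.

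The classes α, β and γ differed in ways that depended on position. In medulla nuclei with 0 position counts β nuclei were lowest, at 3071.7 CPM. With 8 or more, γ nuclei were highest, at 2154.1 CPM, and the intervals of β, 1511.1 CPM (1428.5 to 1597.2), and α, 1436.8 CPM (1388.3 to 1486.6), overlapped. Over the whole groups medulla γ nuclei held 0.951 times the Slc5a3 of medulla-side α nuclei (0.934 to 0.968), and 0.985 times (0.964 to 1.01) with stricter class cuts. In cortex β nuclei held 0.954 times the level of α nuclei (0.919 to 0.989). Without barcodes bearing other cell types' markers the levels were 1097.4 CPM (1058 to 1137.9) and 1116.7 CPM (1089 to 1145), with overlapping intervals. With stricter cuts they were 860.3 CPM (826.2 to 895.4) and 992.7 CPM (967.4 to 1018.5). In medulla β nuclei held 1.26 times the level of cortex-side α nuclei (1.21 to 1.32), which became 1.06 times (0.993 to 1.12) with stricter cuts. Those β nuclei had a median of 6 position counts against 11 in the cortex-side α nuclei, so the groups were not matched in position. Over members with enough counts, 0 of 4 were past 2-fold between β and α in cortex, where 5% of 14772 genes were (2.71% higher and 2.29% lower). In medulla 0 of 4 were, beside 5.74% of 11547 genes (2.16% higher and 3.59% lower). Slc6a12 had too few counts to be among these 4. From 7 counts in β and 2 in cortex-side α nuclei its ratio was 6.39 (1.22 to 63.1).

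The MD class stood apart in both libraries. In cortex its Slc5a3 was 0.336 times that of α nuclei (0.307 to 0.367), the only 1 of 4 members past 2-fold, beside 6.42% of 13930 genes lower and 6.92% higher (13.3% in all). The ratio was 0.243 (0.217 to 0.272) without barcodes bearing other cell types' markers and 0.22 (0.195 to 0.248) without the 5% of barcodes with the highest doublet scores. At least 1 Slc5a3 count was found in 32.01% of cortex MD nuclei (28.44% to 35.74%) and 29.49% of medulla MD nuclei (19.7% to 40.89%). In the other groups the share ran from 79.53% in cortex α to 99.04% in medulla γ nuclei. Barcodes marked as proximal tubule, with at most 2 Slc12a1 counts, gave 12.64% and 22.68% at median depths of 3436 and 4590 counts, against 1883 and 1995.5 in the MD class.

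With each nucleus thinned to 1000 counts, 15.77% of cortex MD nuclei and 25.64% of medulla MD nuclei kept a Slc5a3 count, against 4.598% and 8.247% of the proximal tubule barcodes. The same thinning left a count in 55.31% of cortex α, 72.16% of cortex-side α, 94.38% of medulla-side α and 93.72% of medulla γ nuclei. The mean was 0.2006 counts per 1000 in cortex MD, 1.019 in cortex α, 1.657 in cortex-side and 3.697 in medulla-side α nuclei. The medians were 0, 1, 1 and 3.

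**Figure D3:**
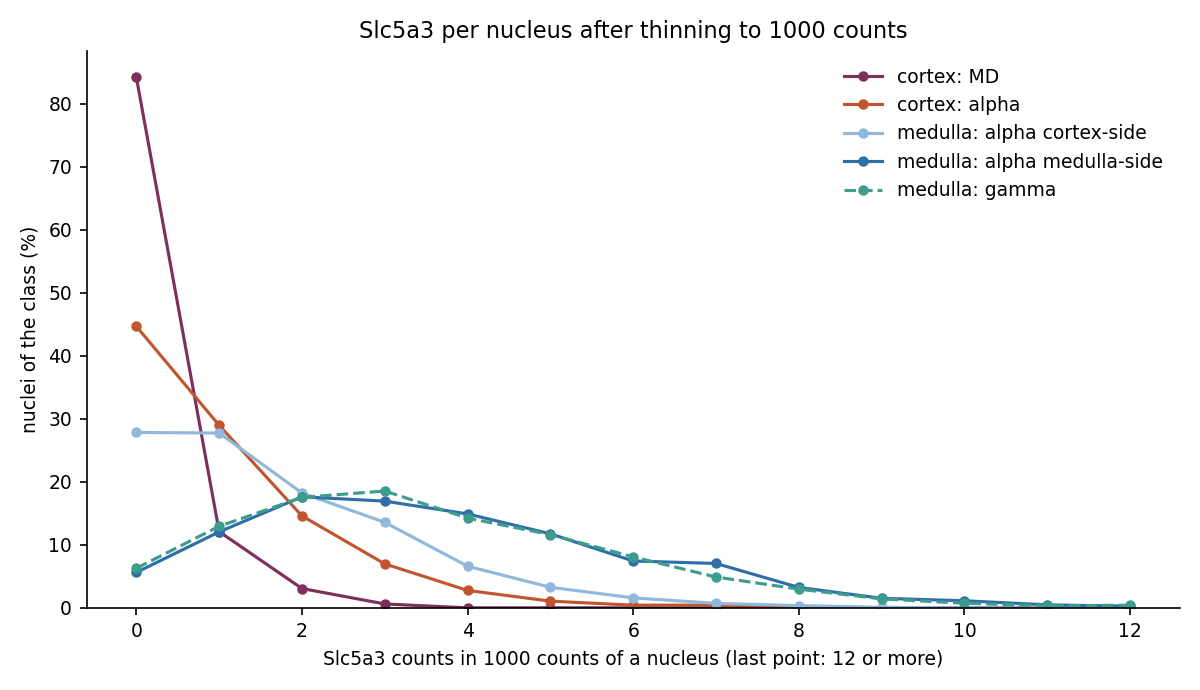
Share of nuclei (%) by Slc5a3 counts after thinning each nucleus to 1000 counts, for 5 groups. In cortex MD most nuclei sit at 0, cortex α nuclei have 44.69% at 0, and the curves of medulla-side α and medulla γ nuclei lie close to each other with a median of 3.

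Mrps6 moved with Slc5a3. The count of Slc5a3 divided by that of Mrps6 was between 2.148 (1.339 to 3.528, medulla MD) and 3.214 (3.039 to 3.401, cortex-side α) over the 10 groups, while Slc5a3 itself spanned 3.51 on the log2 scale and Mrps6 3.52. The ratio fell from 3.214 in cortex-side to 2.695 (2.623 to 2.769) in medulla-side α nuclei, where Mrps6 was 2.68-fold higher (2.54 to 2.83). Over the 10 groups and 8268 candidate genes, those most like Slc5a3 by Pearson's r of log2(CPM + 1) were Irs1 (0.995), an adaptor of insulin signalling, Gal3st1 (0.993), an enzyme of sulfatide synthesis, Mrps6 (0.992), Gm13075 (0.99) and Desi2 (0.99). These r values are descriptions over groups that share 2 libraries.

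Slc6a12 was rare, and in the TAL classes was counted in the medulla library alone. It gave 88 counts in 79 classed nuclei of medulla, 4.323 CPM (3.467 to 5.326), and 0 counts in the classed nuclei of cortex. A count of 0 in 15686727 allows up to 0.1912 CPM by a limit of 3 counts. The medulla level of 4.323 CPM was 22.6 times that limit, a ratio that leaves out the counting error of the medulla level. The single cortex count lay in a barcode outside the classes. In medulla, barcodes under the nucleus call gave 8 counts (3.888 CPM, 1.679 to 7.661), a level like that in nuclei, and the proximal tubule barcodes gave 1 count in 97 barcodes. The share from RNA outside nuclei was not tested.

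Within medulla the α and γ counts of the gene lay almost wholly at the medullary end, and the few β counts did not. Medulla-side α nuclei held 43 counts in 39 of 2330 nuclei, 7.986 CPM (5.779 to 10.76) or 1.674% of nuclei. Cortex-side α nuclei held 2 counts in 1137 nuclei, 0.6232 CPM (0.07548 to 2.251), a ratio of 12.8 (3.34 to 109). The ratio rests on those 2 counts and was 24.5 without barcodes bearing other cell types' markers and 25.4 without the highest doublet scores. The 309 between nuclei held 0, which allows 3.82 CPM by the limit of 3 counts and 4.697 CPM by the Poisson limit. Of the 43 medulla-side counts 41 were in nuclei with 0 counts of Enox1 and Thsd4, where the level was 10.08 CPM (7.231 to 13.67).

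In γ nuclei there were 36 counts in 33 of 3542 nuclei, 3.975 CPM (2.784 to 5.503), of which 35 were in nuclei without Enox1 and Thsd4 counts. Slc6a12 was thus at 0.498 times the medulla-side α level (0.311 to 0.794) and 1 of 5 members at least 2-fold lower, beside 0.988% of 14075 genes, with 0 of 5 higher beside 2.12% (3.1% in all). It lay just inside the limit of 0.5, and was 0.526 without the highest doublet scores and 0.534 with equal weight per nucleus. Among nuclei with 0 position counts the values were 5.108 CPM (3.558 to 7.104) in γ and 10.08 CPM in α, and their intervals did not overlap. In the same nuclei Slc5a3 differed by far less, 3633.6 against 3835.9 CPM. Medulla β nuclei held 7 counts in 5 of 571 nuclei, 3.985 CPM (1.602 to 8.21). Of these 1 was at 0 position counts, 3 at 5 to 7 (11.64 CPM, 2.401 to 34.03) and 3 at 8 or more (3.624 CPM, 0.7473 to 10.59). The 78 medulla MD nuclei held 0, which allows 18.07 CPM by the limit of 3 counts and 22.22 CPM by the Poisson limit. A level like that of α nuclei was thus not detectable there. At most 2 counts were found in any barcode. Medulla-side α nuclei with a Slc6a12 count after thinning, 15 in all, held 4.067 Slc5a3 counts per 1000 (3.111 to 5.224) against 3.695 (3.617 to 3.775) in the others.

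Slc6a6 levels moved with the markers of other cell types, and the macula densa class of cortex stood above α nuclei where those markers were few. By class the gene was higher in cortex, at 83.63 CPM (65.07 to 105.8) in γ, 77.07 CPM (69.73 to 84.98) in β, 67.77 CPM (55.85 to 81.47) in MD and 51.47 CPM (46.61 to 56.71) in α nuclei. The 6 medulla groups lay between 13.93 CPM (10.96 to 17.46, medulla-side α) and 24.19 CPM (14.57 to 37.78, between α). Proximal tubule barcodes held 275.5 CPM (226.8 to 331.4) in cortex and 474.1 CPM (413.1 to 541.5) in medulla. Within classes the level rose with the markers of other cell types. Cortex α nuclei held 5.91 CPM (3.704 to 8.947) with 0 such counts and 172.1 CPM (154.9 to 190.7) with 10 or more.

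Without barcodes that had at least 3 counts of other cell types' markers, Slc6a6 lay between 3.174 and 6.814 CPM in all 8 α, β and γ groups of both libraries, with overlapping intervals. The proximal tubule list then summed to 25.39 to 92.45 CPM over all 10 groups. The comparison of libraries depended on these barcodes and on a single further one. Cortex-side α nuclei of medulla held 0.454 times the level of cortex α nuclei (0.35 to 0.582) with all barcodes and 1.21 times (0.654 to 2.19) without. Of the 20 counts that remained in cortex-side α nuclei 8 came from 1 barcode, and without it the ratio was 0.728 (0.34 to 1.46). The share of nuclei with a count was 1.102% (0.5706% to 1.917%) in cortex-side α nuclei and 1.298% (0.8771% to 1.847%) in cortex α nuclei. With all barcodes Slc6a6 was the only 1 of 4 members past 2-fold in that comparison of libraries, beside 8.83% of 14087 genes lower and 0.788% higher (9.62% in all). The β to α ratio in cortex turned likewise, from 1.5 (1.3 to 1.72) to 0.599 (0.251 to 1.29).

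In the MD class of cortex Slc6a6 stood at 32.31 CPM (22.98 to 44.17) without those barcodes, 5.74 times that of α nuclei (3.49 to 9.52), against 1.32 times (1.06 to 1.63) with all barcodes. The 39 counts were spread over 32 of 586 nuclei, with at most 3 in a nucleus. The share of nuclei with a count was 5.461% (3.765% to 7.622%) at a median depth of 1832.5 counts, against the 1.298% of cortex α nuclei at 2322. With 0 counts of other cell types' markers the MD level was 26.64 CPM (16.69 to 40.33), again above the 5.91 CPM of α nuclei. In medulla the 77 remaining MD nuclei held 2 counts, 12.48 CPM (1.511 to 45.06), too few to place them. Of the 47 remaining counts of medulla γ nuclei 15 came from 1 barcode.

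**Figure D4:**
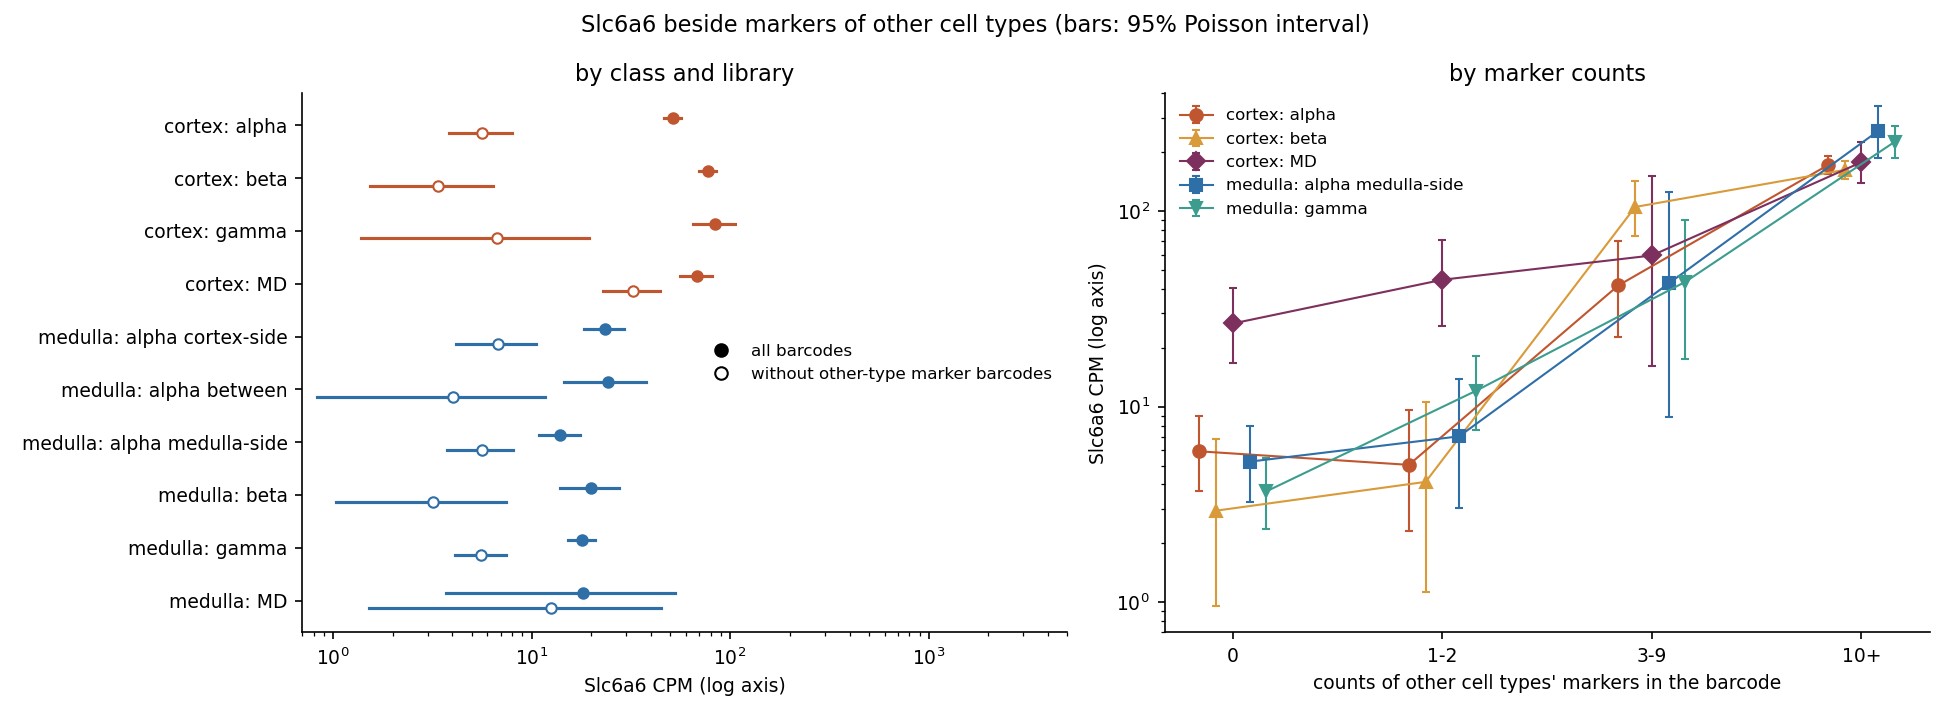
Left, Slc6a6 CPM (log axis) in the 10 groups with all barcodes (filled) and without barcodes that had 3 or more counts of other cell types' markers (open). Right, Slc6a6 CPM (log axis) by the number of such counts in 5 groups, where all 5 groups lie at 162.6 CPM or above with 10 or more and cortex MD is at 26.64 CPM with 0 counts against 5.91 CPM in cortex α; bars are 95% Poisson intervals.

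Nfat5 varied little. Over the 10 groups its transcript lay between 527.4 CPM (507.9 to 547.5, cortex β) and 750 CPM (690.7 to 813.1, between α of medulla), a span of 0.51 on the log2 scale. Every pair of neighbours in the order had overlapping intervals, but groups further apart did not all overlap. Every medulla group lay above every cortex group, with medulla γ nuclei at 731.7 CPM (714.2 to 749.5). Without barcodes bearing other cell types' markers that order did not hold. Medulla MD nuclei were then at 623.8 CPM (507.5 to 758.7) and cortex α nuclei at 662.7 CPM (641.4 to 684.6). Medulla-side and cortex-side α nuclei held 699.2 CPM (677.1 to 721.9) and 687.8 CPM (659.4 to 717.1), a ratio of 1.02 (0.964 to 1.07), in the same nuclei in which Slc5a3 differed 2.25-fold. Cortex MD nuclei were at 593.7 CPM (557.3 to 631.9) and cortex α nuclei at 599.7 CPM (582.8 to 617), a ratio of 0.99 (0.923 to 1.06). In cortex β nuclei Nfat5 was 0.879 times the α level (0.839 to 0.922). Between libraries, cortex-side α nuclei of medulla held 1.15 times the level of cortex α nuclei (1.09 to 1.21), and 1.07 times (1.01 to 1.12) without barcodes bearing other cell types' markers.

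Slc5a3 was also set against the Nfat5 count of the same nucleus, and no single direction held over the groups. After thinning, medulla-side α nuclei with 0, 1 and at least 2 Nfat5 counts held 3.639 (3.532 to 3.75), 3.763 (3.625 to 3.905) and 3.75 (3.558 to 3.95) Slc5a3 counts per 1000. In medulla γ nuclei the values were 3.571, 3.509 and 3.53, with overlapping intervals. Cortex α nuclei gave 0.9717 (0.9239 to 1.021), 1.048 (0.9795 to 1.119) and 1.151 (1.047 to 1.262), the last interval lying above the first. All barcodes were kept here. Without barcodes bearing other cell types' markers cortex α nuclei held more of both genes. Slc5a3 was then at 1116.7 against 939.3 CPM and Nfat5 at 662.7 against 599.7 CPM. The part of these barcodes was not tested. In cortex-side α nuclei the values were 1.574 (1.476 to 1.677), 1.815 (1.679 to 1.959) and 1.614 (1.427 to 1.82), highest at 1 count. Medulla β nuclei gave 2.043 (1.885 to 2.212), 2.352 (2.134 to 2.585) and 2.169 (1.873 to 2.497), and cortex MD nuclei 0.2184 (0.1721 to 0.2733), 0.1961 (0.1401 to 0.267) and 0.1485 (0.08312 to 0.245), each with overlapping intervals. Genes most like Nfat5 over the 10 groups were Acvr1b (0.95), an activin receptor, and Nfkb1 (0.945), a subunit of NF-kB, followed by Gm31793, Tiam2 and Efna5 (0.938, 0.936 and 0.935). With a member that moves so little, these r values rest on small differences.

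Hspa4l was counted rarely in all classes. It ranged from 12.73 CPM (6.106 to 23.42, 10 counts in between α) to 66.26 CPM (33.08 to 118.6, 11 counts in medulla MD). No neighbours in the order were separated, but groups further apart did not all overlap. The 8 other groups lay between 21.36 and 29.99 CPM. Medulla-side α nuclei held 0.816 times the level of cortex-side α nuclei (0.611 to 1.09), and none of the 6 intervals of its ratios left out 1. Medulla MD and between α nuclei were in none of these comparisons. Of the 11 counts in medulla MD nuclei 4 came from 1 nucleus. Its relative Hspa4 lay between 132.5 and 165.7 CPM in the 9 other groups and at 84.33 CPM (46.1 to 141.5) in medulla MD nuclei.

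**Figure D5:**
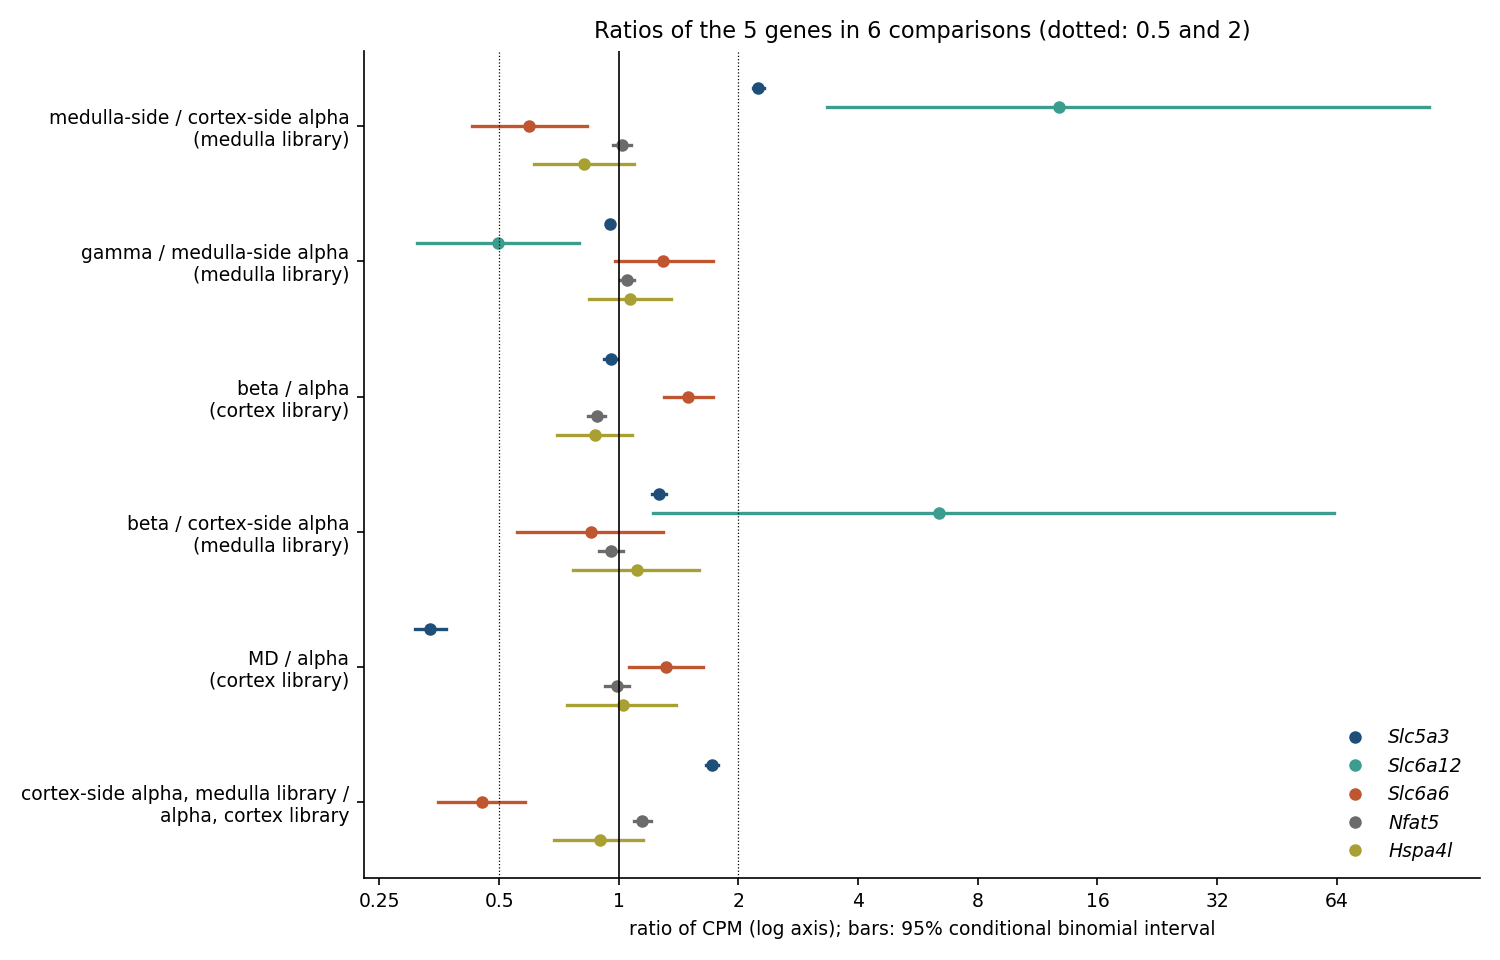
Ratios of CPM (log axis) of the 5 genes in 6 comparisons with 95% conditional binomial intervals, and lines at 0.5, 1 and 2. Slc5a3 lies at 2.25 between the sides of medulla α and at 0.336 between MD and α, Nfat5 and Hspa4l lie between 0.816 and 1.15 throughout, and Slc6a12 is missing where at least 1 of the groups had 0 counts.

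Further genes of osmolyte handling and of the Nfat5 pathway, 43 in 9 lists, did not as a whole move together with Slc5a3. Between medulla-side and cortex-side α nuclei 37 had at least 20 counts. Of these 1 was at least 2-fold higher, 4 were at least 2-fold lower and 32 were within, beside 2.91% higher and 6.19% lower of all genes, with a median log2 ratio of 0 beside -0.03 for all 12819 genes. The higher gene was Slc38a2, a sodium-coupled neutral amino acid transporter known to respond to hypertonicity, at 325.6 against 102.5 CPM, 3.18-fold (2.82 to 3.58). The lower ones were Cdo1, cysteine dioxygenase of taurine synthesis (0.444, 0.35 to 0.563), Lrrc8b, a subunit of the volume-regulated anion channel (0.309, 0.19 to 0.492), and the rarely counted Slc5a11, a second sodium/inositol transporter (0.351, 0.144 to 0.811), and Gdpd5, a glycerophosphocholine phosphodiesterase (0.447, 0.166 to 1.16), whose interval included 1.

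Akr1b3, the aldose reductase that makes sorbitol, was at 22.66 against 11.84 CPM, 1.91-fold (1.32 to 2.83), and 2.19-fold (1.46 to 3.36) without barcodes bearing other cell types' markers. Under that restriction 2 of 35 genes were higher, Slc38a2 and Akr1b3, and 2 lower, Cdo1 and Lrrc8b. The share of all genes past 2-fold was not computed under that restriction, in this or the other comparisons. None of the 7 heat shock genes with enough counts was past 2-fold, and none of the 6 listed partners of Nfat5. Some lay just under that limit. Cryab was at 12.81 against 6.544 CPM and Hsph1 at 59.06 against 33.66 CPM. Dnajb1 was at 3.157 against 4.674 CPM, from only 17 and 15 counts. Hspa1b was nearly equal, at 2.786 against 2.805 CPM from 15 and 9 counts. The median log2 ratio of the heat shock list was 0.27. Isyna1 of the inositol list was at 54.42 against 28.67 CPM, in a list with a median of -0.18. Between γ and medulla-side α nuclei 0 of 39 genes were past 2-fold, beside 3.1% of all genes, with a median log2 ratio of 0.05 beside 0.01 for all genes.

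Between MD and α nuclei of cortex 5 of 36 genes were past 2-fold, a share near the 13.3% of all genes. Lrrc8c, another subunit of the volume-regulated anion channel, was 8.12-fold higher (6.24 to 10.6), at 94.75 against 11.68 CPM, while the obligatory subunit Lrrc8a was at 22.79 and 26.36 CPM and Lrrc8d at 389.8 CPM in both. Nfatc2, a calcineurin-dependent relative of Nfat5, was 2.56-fold higher (2.17 to 3.02), Slc38a2 2.55-fold higher (2.21 to 2.95) and Gdpd5 2.33-fold higher (1.27 to 4.13). Slc2a13, the proton/inositol transporter, was 0.201 times the α level (0.168 to 0.239), so that both inositol transporters with high counts were lower in MD. Without barcodes bearing other cell types' markers 8 of 34 genes were past 2-fold, 5 higher and 3 lower, with Lrrc8b added to the higher, and Sord and Miox, enzymes of sorbitol and inositol breakdown, added to the lower. The 13.3% of all genes holds for all barcodes, and no such share was computed without these.

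In the 78 medulla MD nuclei Lrrc8c was at 72.28 CPM and Slc38a2 at 210.8 CPM, from 12 and 35 counts. Slc2a13 was there at 126.5 CPM against 637.3 CPM in cortex-side α nuclei. In cortex β nuclei 1 of 39 genes, Slc2a13, was past 2-fold, beside 5% of all genes, at 0.38 times the α level (0.351 to 0.41). Without barcodes bearing other cell types' markers 3 of 35 were, with Lrrc8c at 0.2 (0.0705 to 0.459) and Nfatc1, another calcineurin-dependent relative of Nfat5, at 0.393 (0.215 to 0.676). For that set no share of all genes was computed. In medulla β nuclei 1 of 33 was, beside 5.74% of all genes, Lrrc8b, at 0.326 times the cortex-side α level (0.148 to 0.645).

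Between cortex-side α nuclei of medulla and cortex α nuclei 4 of 38 genes were past 2-fold, a share near the 9.62% of all genes: Cryab, a small heat shock protein gene, higher (3.72, 1.81 to 7.92), and Miox (0.246), Slc5a11 (0.402) and Lrrc8c (0.32) lower. Miox and Slc5a11, like Slc6a6, are known from proximal tubule, and without barcodes bearing other cell types' markers Miox was at 0.626 (0.451 to 0.856) and Slc5a11 had too few counts. That left 2 of 37 genes past 2-fold, Cryab and Lrrc8c, with no share of all genes computed for that set.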

How the data were processed

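Nuclei of 2 libraries, cortex and medulla, were analysed. PIPseq 3' libraries were mapped by the authors to GRCm39 with PIPseeker, and the deposited counts are unnormalized whole numbers for each gene in each barcode. They precede the doublet removal, ambient RNA correction and scTransform of the study. The submitters' processing notes name bcl2fastq and Seurat 4.4.0. The annotation release was not given in the sources used here, and deposited cluster numbers and UMAP coordinates were not used. Samples were grouped by the region in their titles.

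Matrices of called nuclei were summed with pandas 2.3.3, numpy 2.4.6 and scipy 1.17.1 under Python 3.11.15. Classes followed the count rule in the text, with no doublet removal. A ratio counted as tested with at least 20 counts over both groups, and as past 2-fold at 2 or more or at 0.5 or less. Median depths of 2427 and 2430 counts per nucleus limit rare genes to the intervals given. Since a nucleus is no replicate, p-values were not computed. Thinning to 1000 counts used a fixed seed. Ratios, intervals and thinning were tested on simulated data. Named genes were the 5 members, Mrps6, Hspa4, genes of 9 pathway lists and of marker lists, and for each member the 5 genes with the highest Pearson r over groups of at least 50 nuclei, among genes with at least 500 counts. The members and lists were chosen with earlier results of these data known. Scrublet scores came from scanpy 1.11.5. Gene positions are from GENCODE M39 and promoter windows from RefSeq. Dividing classes by position genes, dividing them by other cell types' markers, the pathway lists without marked barcodes, and leaving out 1 barcode for Slc6a6 were chosen after seeing the data.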

Additional observations from a re-analysis of the deposited data

Results flagged for a closer look

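Slc5a3 in β relative to α nuclei went in opposite directions in the libraries, 0.9536 (0.9192 to 0.9892) in cortex and 1.263 (1.21 to 1.318) in medulla against cortex-side α nuclei. The difference between these ratios was not tested, since each library is 1 sample, and the medulla ratio was 1.056 (0.9934 to 1.123) with stricter class cuts. The medulla groups were not matched in position. At 5 to 7 position counts medulla β and α nuclei held 2096 and 2049.5 CPM, and at 8 or more 1511.1 and 1436.8 CPM. Their intervals overlapped at both steps. Without barcodes bearing other cell types' markers the cortex β and α intervals overlapped, at 1097.4 and 1116.7 CPM. With stricter cuts those of cortex did not, at 860.3 and 992.7 CPM.

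Barcodes not called as nuclei, with at most 100 counts each, were outside every comparison and held the member genes above the limit that a count of 0 allows. In cortex, 430749 such barcodes held 721.2 CPM of Slc5a3, 68.47 CPM of Slc6a6, 489.1 CPM of Nfat5 and 26.71 CPM of Hspa4l. In medulla, 434424 held 2680.2 CPM of Slc5a3, 3.888 CPM of Slc6a12, 35.96 CPM of Slc6a6, 575.9 CPM of Nfat5 and 21.38 CPM of Hspa4l. Slc6a12 had 0 counts in those of cortex, which allows 1.129 CPM.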

How the results depend on the processing

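Each ratio of a member was recomputed under up to 8 alternatives. Of these values 188 moved by less than their interval, 17 moved further and 3 turned direction. A value was counted as turned only where the main interval left out 1. The turned values were all of Slc6a6: medulla-side to cortex-side α nuclei with the split made per 10000 counts (1.311), and, without barcodes bearing other cell types' markers, β to α in cortex (0.5986) and cortex-side α of medulla to cortex α (1.211), which became 0.7279 when 1 barcode with 8 counts was also left out, an alternative chosen after seeing the data.

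With stricter class cuts Slc5a3 was 0.9846 for γ to medulla-side α, 0.8666 for β to α in cortex, 1.056 for β to cortex-side α in medulla, 0.2834 for MD to α and 1.634 between libraries, and Slc6a6 was 0.3359 for β to cortex-side α. Without barcodes bearing other cell types' markers Slc5a3 was 0.2433 for MD to α and 1.497 between libraries, Slc6a6 was 0.4659 for β to cortex-side α and 5.742 for MD to α, and Nfat5 was 1.065 between libraries. With the split per 10000 counts Slc6a6 was 0.9341 for γ to medulla-side α, 1.356 for β to cortex-side α and 0.2855 between libraries. The γ and β ratios changed direction, from 1.292 and 0.8524, but were not counted as turned. Slc5a3 was 0.2204 for MD to α without the highest doublet scores, and with equal weight per nucleus 0.2303 for MD to α and 1.612 between libraries. The cause was not tested.

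The number of all genes past 2-fold depended on the count minimum,. In the order of medulla-side to cortex-side α, γ to medulla-side α, β to α in cortex, β to cortex-side α, MD to α and between libraries, it was 1166, 437, 739, 663, 1859 and 1355 at 20 counts, 7272, 6232, 6219, 6756, 9368 and 8222 at 1 count, and 443, 61, 245, 191, 749 and 504 at 100 counts. Without marked barcodes, an alternative chosen after seeing the data, the pathway genes past 2-fold went from 1 to 3 for β to α in cortex, from 5 to 8 for MD to α and from 4 to 2 between libraries. The share of all genes was not recomputed without those barcodes.

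Depth limits Slc6a12 and Hspa4l most, and the 78 medulla MD nuclei can show only large differences. No paired analysis was possible because each region has 1 library. Replicates could not be left out for the same reason.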

Other observations

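For 3 members the genes of most similar pattern over the 10 groups are given here by Pearson's r of log2(CPM + 1), as descriptions over groups that share 2 libraries. Slc6a6 was most like Slc16a9 (0.993), 4931406C07Rik (0.991), Susd3, Hsd3b4 and Ror1 (0.987 each), all with all barcodes kept, where its level moved with the markers of other cell types. Slc6a12, with 0 counts in 6 of the 10 groups, was most like Actr6 (0.94), Gm12353 (0.931), Efhd1 and Abca2 (0.907 each) and Spint2 (0.904). Hspa4l was most like Recql5 (0.972), Ddx1 (0.964), Zmat1 (0.962), Arhgap44 (0.961) and Nol11 (0.96), and its highest and lowest levels were those of the 78 medulla MD and the 309 between nuclei.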
